A study of Mus musculus with 24 samples.

Results

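The 9 genes described here encode the core of the SMAD branch of TGF-beta signalling and its best known brakes: Smad2, Smad3, Smad4, Smad7, Smurf2, Ski, Skil, Tgif1 and Pmepa1. They were chosen by name, together with every probe that the scanner files assign to them, which gave 17 of 41174 probes on the array and 9 of the 16489 genes that could be tested. All 17 probes passed the filter on dim probes, so no member was lost. The array lists Pmepa1 under the older name Tmepai and Tgif1 as Tgif, and both were matched through the transcript accession of their probe.

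TGF-beta binds a pair of receptor kinases that phosphorylate SMAD2 and SMAD3, which join SMAD4 and move to the nucleus to switch genes on or off. Part of what the SMADs switch on turns the signal down again: SMAD7 blocks the receptor and brings in the ubiquitin ligase SMURF2, SKI and SKIL (SnoN) hold SMAD complexes in a repressive state, TGIF1 is a homeodomain corepressor of SMADs, and PMEPA1 is a membrane protein that keeps receptor SMADs from being activated. In T cells the pathway restrains activation of naive cells and supports the expression of Foxp3.

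The RNA came from sorted CD4 T cells of female C57BL/6 mice, either wild type (WT) or with a T cell-specific conditional knockout of Trim28 (CKO). The Cre line that drives the deletion is not given in the sources used here. TRIM28 is a corepressor that zinc finger proteins recruit to chromatin. Naive cells were sorted as CD4+CD62+CD25- and regulatory T cells (Treg) as CD4+CD62+CD25+. The 6 groups of 4 arrays were WT and CKO naive cells left unstimulated, WT and CKO naive cells stimulated for 13 h on plate-coated anti-CD3 and anti-CD28, and WT and CKO Treg. The treatment field calls the CKO Treg stimulated and the WT Treg unstimulated, whereas the design text describes stimulation of naive cells only, so treatment and genotype cannot be told apart in the Treg if that field is right. Mice were 7 weeks old for replicate 4 of every group, for replicate 1 of both stimulated groups and for replicate 1 of the CKO Treg, and 6 weeks old otherwise. Nothing in the labels says that the arrays of a group are separate animals, so a p-value here reflects how far these samples spread, a spread that may be technical. In bulk RNA a smaller number of cells of a type and less RNA per cell cannot be told apart.

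Trim28, the targeted gene, was lower in CKO cells in all 3 states with no overlap between arrays: the log2 difference was -1.51 ± 0.17 (SE) in unstimulated cells, -2.68 ± 0.17 in stimulated cells and -1.57 ± 0.17 in Treg. Foxp3 had a mean log2 signal of 3.26 in WT Treg and 3.34 in CKO Treg, against -2.78 in WT and -1.82 in CKO unstimulated cells, and the T cell genes Cd3e, Cd3g, Cd4 and Lck were above background on every array. The signal at the 75th percentile of an array was 154 to 372 on naive arrays but 53.9 to 200.2 on WT Treg and 31.3 to 116 on CKO Treg arrays. Summed signals of 6 B cell markers (relative to the 75th percentile) ranged from 6.58 to 25.6 in WT and from 16.7 to 56.7 in CKO unstimulated arrays, and those of 6 myeloid and dendritic markers from 15.03 to 55.0 and from 24.3 to 55.6. After stimulation the B cell sums were 0.465 to 2.77 in WT and 1.47 to 5.86 in CKO arrays, and the myeloid sums 0.740 to 4.30 and 1.44 to 12.9, with Itgam and Itgax at background on all WT stimulated arrays. In Treg the B cell sums were 3.85 to 9.35 in WT and 4.43 to 12.5 in CKO arrays, the myeloid sums 8.22 to 22.6 and 8.88 to 29.2. The sums of 5 CD8 and NK cell markers lay in the range 9.45 to 13.1 in WT and 11.2 to 17.7 in CKO unstimulated arrays, 2.37 to 3.79 and 3.00 to 5.01 after stimulation, and 3.30 to 5.46 and 3.46 to 5.44 in Treg. Between genotypes 1 of 6 B cell markers was called higher in CKO unstimulated and 2 of 6 in CKO stimulated cells. For CD8 and NK cell markers it was 2 of 5 and 1 of 5 (1 of 5 in Treg). Of 4 stromal and epithelial markers only Epcam could be tested, and it was higher in CKO in all 3 states. Krt8, of the same list, was above background on no array. Of all genes 7.83% were called higher in unstimulated and 11.6% in stimulated CKO cells, and 4.31% were called in either direction in Treg. In unstimulated CKO cells 2 of 4 T cell genes were called lower, Cd3e (-0.74) and Cd3g (-0.71), where 10.9% of all genes were. Cd4 and Lck were not called. Of 5 Treg markers 3 were called higher there, Foxp3 (0.96), Il2ra (1.10) and Ctla4 (1.55). Ikzf2 (mean -1.87 in CKO against -1.80 in WT) and Tnfrsf18 (5.45 against 5.32) were not called. In stimulated CKO cells 2 of 5 Treg markers were called higher, Foxp3 by 2.45 (-1.31 in CKO against -3.76 in WT) and Ikzf2 by 0.71. The part of these markers in the differences below was not tested.

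Levels are given as the log2 of the probe's signal relative to the 75th percentile of its array, so 0 is the level of the 75th percentile and 1 unit is a doubling of the signal. They may be compared between groups for a gene, not between genes, because probes differ in brightness. A difference was called when the adjusted p from limma, Benjamini-Hochberg corrected over all 16489 genes, was under 0.05.

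In resting naive cells, loss of Trim28 went with a lower signal of Pmepa1, and of Smad3 and Smad4 on the brightest probe only. Smurf2 was lower on 2 of its 3 probes (-0.86 and -0.64) but not on the brightest, by which genes are counted here. Of the 9 genes 3 were called, all lower in CKO, where 18.7% of all genes tested were called (7.83% higher and 10.9% lower). The median difference over the 9 genes was -0.15, against 0.01 over all genes. One gene was called after stimulation, Smad7, which was higher in CKO, where 24% of all genes were called (11.6% higher and 12.4% lower). In Treg 0 of the 9 were called, where 4.31% of all genes were. Stimulation moved most genes of the set, as it did most of all genes: 7 of 9 were called in WT and 8 of 9 in CKO cells, with 61.9% and 60.2% of all genes called in those comparisons. Smad3, Smad4, Smad7, Smurf2, Ski and Skil fell and Pmepa1 rose in both genotypes, where 30.2% of all genes fell and 31.7% rose in WT and 30.4% fell and 29.7% rose in CKO cells. The stimulated and unstimulated arrays did not overlap for 5 of the 9 genes in WT and 7 in CKO cells, against 55.2% and 56.9% of all genes.

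**Figure D1:**
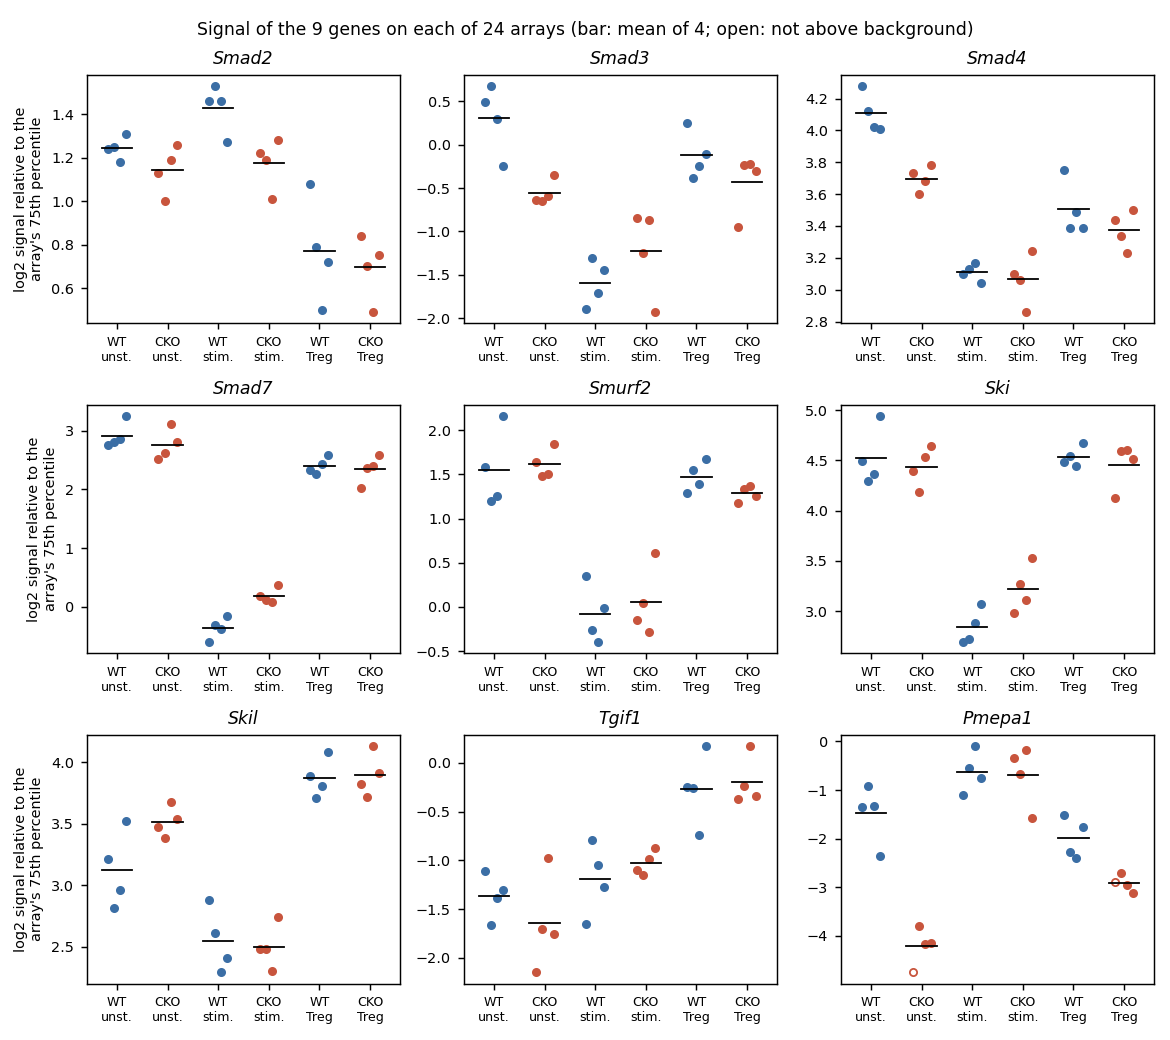
Log2 signal relative to the array's 75th percentile (vertical axis) of the 9 genes in the 6 groups (horizontal axis). Each point is 1 array, blue for WT and red for CKO, open where the probe was not above background, and bars are means of 4 arrays. Pmepa1 is lowest on the 4 CKO unstimulated arrays, between -4.75 and -3.80, and Smad7 is near 0 in both stimulated groups and above 2 elsewhere.

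The group means of Pmepa1 spanned 3.59 on the log2 scale, with the lowest group near background. Its log2 signal on the 4 WT unstimulated arrays was -1.34, -0.91, -1.32 and -2.35. On the 4 CKO unstimulated arrays it was -4.75, -3.80, -4.16 and -4.14, and the first of these was not above background. The CKO arrays were below the WT arrays without overlap, and 20.5% of genes showed no overlap, in either direction, in this comparison. The difference was -2.73 ± 0.32, a signal 6.65-fold lower in CKO (limma adjusted p = 7.15e-06). On each of the 4 slides that held an array of both genotypes the CKO array was lower, by -3.42 to -1.79 on the log2 scale. The size rests on a probe near background: with normexp background correction the difference was -0.88 and not called (adjusted p = 0.0631).

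After stimulation the Pmepa1 arrays of the genotypes overlapped. The WT stimulated arrays gave -1.11, -0.54, -0.10 and -0.76, and the CKO stimulated arrays -0.34, -0.67, -0.17 and -1.58. The difference was -0.07, with a 95% interval from -0.73 to 0.59. In CKO cells the gene rose by 3.52 ± 0.32 on the log2 scale, or 11.5-fold (adjusted p = 6.01e-09), which was 1.49 and still called with normexp correction (adjusted p = 4.9e-05). It rose in WT cells by 0.85 ± 0.32, or 1.81-fold (adjusted p = 0.024), with overlapping WT arrays. The WT rise was no longer called without WT unstimulated replicate 4 (0.56, adjusted p = 0.12), without WT stimulated replicate 2 (0.82, adjusted p = 0.0501) or without WT stimulated replicate 3 (0.68, adjusted p = 0.0894), nor with normexp correction (0.60, adjusted p = 0.0628), scaling on the brightest shared probes (0.55, adjusted p = 0.182) or a fit of only the arrays compared (0.85, adjusted p = 0.0549). The change with stimulation differed between genotypes by 2.67 ± 0.45 (adjusted p of the interaction = 0.00157), in a test that called 3.42% of all genes. With normexp correction that interaction was 0.89 and not called (adjusted p = 0.57).

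In Treg the 4 WT arrays gave -1.51, -2.27, -2.39 and -1.76 for Pmepa1 and the 4 CKO arrays -2.90, -2.70, -2.95 and -3.12, the first CKO value not above background. The CKO arrays lay below the WT arrays without overlap, and 8.33% of all genes showed no overlap, in either direction, in this comparison. The difference of -0.94 ± 0.32 was not called (adjusted p = 0.118). It was called on quantile-normalized signals (-1.10, adjusted p = 0.0395). Between CKO Treg and CKO unstimulated cells Pmepa1 was 2.46-fold higher in Treg (1.30 ± 0.32, adjusted p = 0.00481). The probe was above background on 3 of 4 arrays in each of these groups. The CKO Treg value not above background, -2.90, was higher than every CKO unstimulated value (-4.75 to -3.80). The signal at the 75th percentile was 31.3 to 116 on CKO Treg and 171 to 266 on CKO unstimulated arrays. The part of array brightness in this difference was not tested. Between the WT groups Pmepa1 did not pass the test (-0.50 ± 0.32, adjusted p = 0.197), where without WT unstimulated replicate 4 it did (-0.79, adjusted p = 0.0368). The genotype effect in Treg differed from that in unstimulated cells by 1.80 ± 0.45, which missed the threshold (adjusted p = 0.0878), and passed it without WT unstimulated replicate 4 (2.09, adjusted p = 0.0151). Ordered by mean, Pmepa1 ran from CKO unstimulated through CKO Treg, WT Treg, WT unstimulated and CKO stimulated to WT stimulated cells. Of the 5 steps, the first (1.30) and the fourth (0.79, adjusted p = 0.04) were called.

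SMAD2 and SMAD3 are the receptor-activated SMADs, and their genes behaved unalike. Smad2 group means spanned 0.73: unstimulated arrays gave 1.24, 1.25, 1.18 and 1.31 in WT and 1.13, 1.00, 1.19 and 1.26 in CKO cells. Stimulated arrays gave 1.46, 1.53, 1.46 and 1.27 in WT and 1.22, 1.19, 1.01 and 1.28 in CKO cells. Treg arrays gave 1.08, 0.79, 0.50 and 0.72 in WT and 0.84, 0.70, 0.49 and 0.75 in CKO cells. Treg had the lowest means, though WT Treg overlapped with CKO unstimulated cells. Naive groups overlapped, except that CKO unstimulated arrays lay just below WT stimulated arrays (-0.285 ± 0.116, adjusted p = 0.034). Smad2 did not pass the test with genotype in any state nor with stimulation, where the intervals were -0.05 to 0.43 in WT and -0.21 to 0.27 in CKO cells. With array weights Smad2 was called lower in CKO stimulated cells (-0.235, adjusted p = 0.0195, against -0.255, adjusted p = 0.112, in the main fit). It was lower in Treg than in unstimulated naive cells of both genotypes (-0.47 ± 0.12, adjusted p = 0.00283 in WT; -0.45 ± 0.12, adjusted p = 0.00686 in CKO), the WT difference not called with scaling on the brightest shared probes (-0.15, adjusted p = 0.145).

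Smad3 was read by 3 probes. On the brightest, the 4 WT unstimulated arrays gave 0.49, 0.68, 0.30 and -0.25 and the 4 CKO unstimulated arrays -0.64, -0.65, -0.59 and -0.35. The groups did not overlap, although WT replicate 4 came close to the CKO arrays. Smad3 was 1.82-fold lower in CKO (-0.86 ± 0.24, adjusted p = 0.0174), and lower on each of 4 slides. The call was lost without WT unstimulated replicate 2 (-0.74, adjusted p = 0.0726) or CKO unstimulated replicate 2 (-0.83, adjusted p = 0.0504), and the other 2 probes did not show it, with differences of -0.24 ± 0.21 and 0.16 ± 0.18. It was also lost with scaling on the brightest shared probes (-0.77, adjusted p = 0.0594) and with the mean of the 3 probes (-0.31, adjusted p = 0.113).

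With stimulation Smad3 fell in both genotypes. The brightest probe gave -1.90, -1.31, -1.71 and -1.45 on WT stimulated and -0.85, -1.25, -0.87 and -1.93 on CKO stimulated arrays. All 8 values lay below those of the unstimulated arrays of the same genotype. The fall was 3.73-fold in WT (-1.90 ± 0.24, adjusted p = 4.95e-07) and 1.59-fold in CKO cells (-0.67 ± 0.24, adjusted p = 0.0196), the latter not called without CKO unstimulated replicate 4 (-0.60, adjusted p = 0.0554) or CKO stimulated replicate 4 (-0.43, adjusted p = 0.0981), with normexp correction (-0.33, adjusted p = 0.148) or with a slide block (-0.63, adjusted p = 0.0673). All 3 probes were called lower in both genotypes, by -2.21 to -1.88 in WT and -1.29 to -0.67 in CKO cells, in comparisons that called 61.7% and 59.7% of all kept probes. The interaction of genotype and stimulation was 1.23 ± 0.34 and only just called (adjusted p = 0.044): leaving out 1 array of the naive groups at a time, 13 of 16 times it was not called (values from 1.10 to 1.30), and the other 2 probes gave 0.92 and 0.64, not called. In stimulated cells those 2 probes were called higher in CKO, at 0.68 ± 0.21 (adjusted p = 0.0281) and 0.79 ± 0.18 (adjusted p = 0.0046), with no overlap between arrays, while the brightest probe gave 0.37 ± 0.24 (adjusted p = 0.262) and passed without CKO stimulated replicate 4 (0.60, adjusted p = 0.0475).

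In Treg Smad3 lay at 0.25, -0.38, -0.25 and -0.11 on the WT arrays and at -0.95, -0.23, -0.22 and -0.30 on the CKO arrays. The CKO value of -0.95 stood apart from the other 3. The genotype difference of -0.30 ± 0.24 was not called (adjusted p = 0.672), and Treg did not differ from unstimulated naive cells past the test in WT (-0.43 ± 0.24) or CKO cells (0.13 ± 0.24), except that WT did without WT unstimulated replicate 4 (-0.61, adjusted p = 0.0376). Another Smad3 probe was called in the other direction, higher in WT Treg than in WT unstimulated cells without overlap (0.57 ± 0.18, adjusted p = 0.0156), so the direction depends on the probe. From low to high the groups ran WT stimulated, CKO stimulated, CKO unstimulated, CKO Treg, WT Treg and WT unstimulated, and of the 5 steps only that from CKO stimulated to CKO unstimulated was called.

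Smad4 encodes the shared partner of all receptor-activated SMADs. Its brighter probe gave 4.28, 4.12, 4.02 and 4.01 on WT and 3.73, 3.60, 3.68 and 3.78 on CKO unstimulated arrays. The WT group was high on all 4 arrays and tight, and the CKO group was 1.33-fold lower (-0.41 ± 0.11, adjusted p = 0.0134), with -0.55 to -0.23 within slides. The second probe, which lies 58 bases further toward the 3′ end in the coordinates of the array design, gave -0.06 ± 0.24, and the mean of both probes was not called (-0.23, adjusted p = 0.261). Nor was the brighter probe with normexp correction (-0.42, adjusted p = 0.342) or in a fit of only the arrays compared (-0.41, adjusted p = 0.0551). After stimulation the WT arrays gave 3.10, 3.13, 3.17 and 3.04 and the CKO arrays 3.10, 3.06, 2.86 and 3.24, a difference of -0.05 with an interval from -0.27 to 0.17. Stimulation lowered Smad4 by -0.998 ± 0.11 on the log2 scale in WT (adjusted p = 5.21e-08) and by -0.64 ± 0.11 in CKO cells (adjusted p = 2.62e-05), and both probes were called in both genotypes. The interaction was 0.36 ± 0.15 and not called (adjusted p = 0.237).

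In Treg the brighter Smad4 probe gave 3.75, 3.39, 3.49 and 3.39 in WT and 3.44, 3.34, 3.23 and 3.50 in CKO cells. These values overlapped between genotypes and lay below the unstimulated arrays of the same genotype. Smad4 was lower in Treg than in unstimulated cells by -0.60 ± 0.11 in WT (adjusted p = 0.000182). The second probe did not show this, at -0.10 ± 0.24 in WT (adjusted p = 0.746) and 0.23 ± 0.24 in CKO cells (adjusted p = 0.506), and the mean of both probes was not called in WT (-0.35, adjusted p = 0.0504). In CKO cells the brighter probe gave -0.32 ± 0.11 (adjusted p = 0.0291), and it was not called when any of 5 arrays was left out: CKO unstimulated replicates 1, 3 and 4 (-0.31, -0.33 and -0.29) and CKO Treg replicates 2 and 3 (-0.31 and -0.27). On quantile-normalized signals it was -0.11 (adjusted p = 0.401).

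SMAD7, the inhibitory SMAD, had the largest response to stimulation of the genes that fell. Smad7 gave 2.76, 2.80, 2.86 and 3.25 on WT and 2.52, 2.62, 3.11 and 2.80 on CKO unstimulated arrays, which overlapped. After stimulation it gave -0.60, -0.30, -0.37 and -0.16 on WT and 0.19, 0.11, 0.09 and 0.38 on CKO arrays. All stimulated arrays were far below the unstimulated ones, and all CKO stimulated arrays were above all WT stimulated ones. The arrays of the stimulated groups did not overlap, in either direction, for 25.6% of genes. Smad7 fell 9.66-fold in WT (-3.27 ± 0.15, adjusted p = 1.83e-13) and 5.94-fold in CKO cells (-2.57 ± 0.15, adjusted p = 1.15e-11). In stimulated cells it was 1.46-fold higher in CKO (0.55 ± 0.15, adjusted p = 0.0135), by 0.41 to 0.79 within the 4 slides, and with normexp correction it was 0.41 and not called (adjusted p = 0.274). The interaction, 0.70 ± 0.21, missed the threshold (adjusted p = 0.0796), and passed it without CKO unstimulated replicate 3 (0.82, adjusted p = 0.0394).

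In Treg Smad7 gave 2.33, 2.27, 2.43 and 2.58 on WT and 2.02, 2.37, 2.40 and 2.59 on CKO arrays, a difference of -0.06 with an interval from -0.37 to 0.26. It was lower than in unstimulated naive cells by -0.51 ± 0.15 in WT (adjusted p = 0.0087). In CKO cells the difference was -0.42 ± 0.15 (adjusted p = 0.0432) with overlapping arrays, and it was not called without any one of CKO unstimulated replicates 3 and 4 or CKO Treg replicates 1, 2 and 3 (-0.43 to -0.30). On quantile-normalized signals neither was called (-0.25, adjusted p = 0.201 in WT; -0.24, adjusted p = 0.281 in CKO).

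SMURF2 is the ubiquitin ligase that SMAD7 carries to the receptor, and its 3 probes disagreed on the effect of genotype. The brightest, nearest the 3′ end, gave 1.58, 1.20, 1.25 and 2.16 on WT and 1.64, 1.48, 1.50 and 1.84 on CKO unstimulated arrays, which overlap (0.07 ± 0.21). A probe 1523 bases upstream gave 1.16, 1.11, 1.14 and 1.27 on WT and 0.55, 0.34, 0.44 and 0.79 on CKO arrays. A probe 18336 bases upstream gave 1.71, 1.22, 1.28 and 0.96 on WT and 0.42, 0.24, 0.41 and 0.68 on CKO arrays. On both upstream probes every CKO array lay below every WT array, with differences of -0.64 ± 0.12 (adjusted p over all probes = 0.00185) and -0.86 ± 0.18 (adjusted p = 0.00409). The distances are those of the array design, whose genome build is not given in the sources used here. With the mean of the 3 probes in place of the brightest, Smurf2 was lower in CKO unstimulated cells (-0.48, adjusted p = 0.00582). Whether a fall is seen for this gene thus depends on the probe, and no probe was called higher.

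Stimulation lowered all 3 Smurf2 probes in both genotypes, by -1.63 to -1.04 in WT and -1.56 to -0.80 in CKO cells. The brightest gave 0.35, -0.26, -0.40 and -0.01 on WT and -0.15, 0.04, -0.28 and 0.61 on CKO stimulated arrays, a fall of 3.09-fold in WT (adjusted p = 6.47e-07) and 2.95-fold in CKO cells (adjusted p = 1.45e-06). The probe 1523 bases upstream was also lower in CKO among stimulated cells (-0.40 ± 0.12, adjusted p = 0.0235). In WT Treg against unstimulated cells both upstream probes were lower (-0.62 ± 0.12 and -0.93 ± 0.18) and the brightest was not called (-0.07 ± 0.21), the same division as with genotype.

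**Figure D2:**
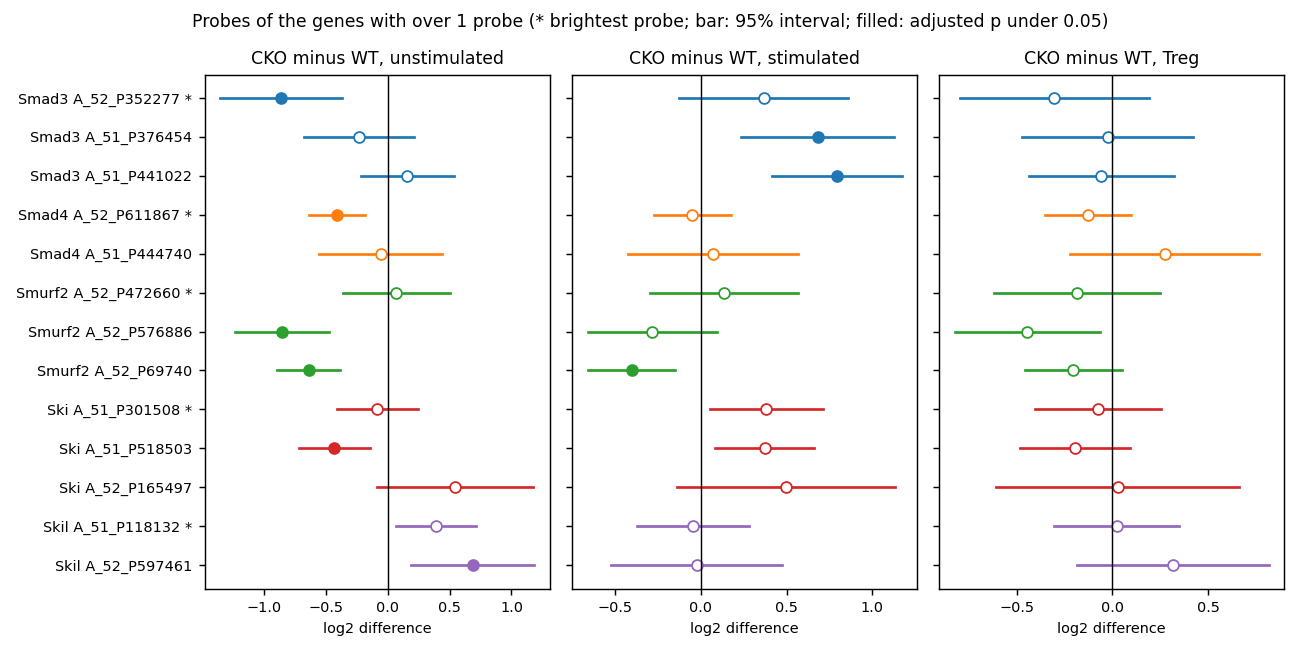
Log2 difference of CKO minus WT (horizontal axis) for each probe of the 5 genes with more than 1 probe, in unstimulated cells (left), stimulated cells (middle) and Treg (right). Points are differences of means of 4 arrays, bars 95% intervals, filled points have an adjusted p under 0.05, and an asterisk marks the brightest probe of the gene. In unstimulated cells the Smurf2 probes lie at 0.07, -0.86 and -0.64 and the Smad3 probes at -0.86, -0.24 and 0.16.

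SKI and SKIL are related corepressors that bind SMAD complexes on DNA, and SKIL is degraded when TGF-beta signals. Ski was read by 3 probes. The brightest ranged from 4.29 to 4.94 on WT and from 4.18 to 4.64 on CKO unstimulated arrays, and from 4.12 to 4.67 on the 8 Treg arrays. Only the stimulated groups were low, at 2.69, 2.72, 2.88 and 3.07 in WT and 2.98, 3.27, 3.11 and 3.53 in CKO cells. Ski fell 3.21-fold in WT (-1.68 ± 0.16, adjusted p = 7.26e-09) and 2.32-fold in CKO cells (-1.21 ± 0.16, adjusted p = 1.03e-06) on stimulation, and all 3 probes fell in both genotypes. In stimulated cells Ski was higher in CKO on all 4 slides but missed the threshold (0.38 ± 0.16, adjusted p = 0.0793), and on quantile-normalized signals it passed (0.52, adjusted p = 0.0422). A second probe, 1316 bases upstream of the brightest, was lower in CKO unstimulated cells (-0.43 ± 0.14, adjusted p = 0.0349) and was the one Ski probe with an interaction of genotype and stimulation (0.81 ± 0.20, adjusted p = 0.0275), while another, 4915 bases upstream, gave 0.54 ± 0.30 in unstimulated cells and was not called.

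Skil was read by 2 probes. The brighter gave 3.21, 2.81, 2.96 and 3.52 on WT and 3.47, 3.38, 3.68 and 3.54 on CKO unstimulated arrays. It gave 3.89, 3.71, 3.81 and 4.08 on WT and 3.82, 3.72, 4.13 and 3.91 on CKO Treg arrays. WT Treg exceeded WT unstimulated cells on every array, as was so in 1 direction or the other for 34.8% of genes, by 0.75 ± 0.15 (adjusted p = 0.000778), which was 0.11 and not called with normexp correction (adjusted p = 0.708). The CKO Treg arrays were also all above the CKO unstimulated ones, a lack of overlap seen, in either direction, for 30.9% of genes. The difference was 0.38 ± 0.15 (adjusted p = 0.0743). It was called on quantile-normalized signals (0.63, adjusted p = 0.00559) and below 0 with normexp correction (-0.14, adjusted p = 0.634). The second probe was called in both genotypes (1.27 ± 0.24 in WT, 0.90 ± 0.24 in CKO), where 46.0% and 24.4% of all kept probes were. On stimulation the brighter probe fell to 2.29 to 2.88 in WT (-0.58 ± 0.15, adjusted p = 0.00275) and to 2.30 to 2.74 in CKO cells (-1.02 ± 0.15, adjusted p = 9.05e-06). The WT fall was not called with normexp correction (-0.56, adjusted p = 0.0818) or the mean of the probes (-0.39, adjusted p = 0.086). In unstimulated cells Skil was higher in CKO on all 4 slides without passing the test (0.39 ± 0.15, adjusted p = 0.0817), and it passed without WT unstimulated replicate 4 (0.52, adjusted p = 0.0156) and on quantile-normalized signals (0.47, adjusted p = 0.0443). The second probe was called higher in CKO there, with overlapping arrays (0.69 ± 0.24, adjusted p = 0.0498).

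Tgif1 was higher in Treg than in unstimulated cells of both genotypes. It gave -1.11, -1.66, -1.39 and -1.31 on WT and -2.15, -1.70, -0.98 and -1.76 on CKO unstimulated arrays, and -0.25, -0.26, -0.74 and 0.17 on WT and -0.37, -0.24, 0.17 and -0.34 on CKO Treg arrays. Every Treg array was above every unstimulated array of its genotype, a lack of overlap seen, in either direction, for 34.8% of genes in WT and 30.9% in CKO. Treg were 2.14-fold higher than unstimulated cells in WT (1.09 ± 0.23, adjusted p = 0.000738) and 2.74-fold higher in CKO (1.46 ± 0.23, adjusted p = 7.73e-05), and the CKO against WT interval in Treg was -0.39 to 0.55. On stimulation Tgif1 ranged from -1.65 to -0.79 in WT, where it was not called (0.18 ± 0.23), and from -1.15 to -0.87 in CKO cells, where it was (0.62 ± 0.23, adjusted p = 0.0233). That CKO call was lost without CKO unstimulated replicate 1 (0.45, adjusted p = 0.102), CKO unstimulated replicate 4 (0.58, adjusted p = 0.0541) or CKO stimulated replicate 4 (0.56, adjusted p = 0.0567), with scaling on the brightest shared probes (0.42, adjusted p = 0.146) or with a slide block (0.60, adjusted p = 0.0526). The interaction was 0.44 ± 0.32 (adjusted p = 0.558), so the genotypes were not shown to differ in this response.

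**Figure D3:**
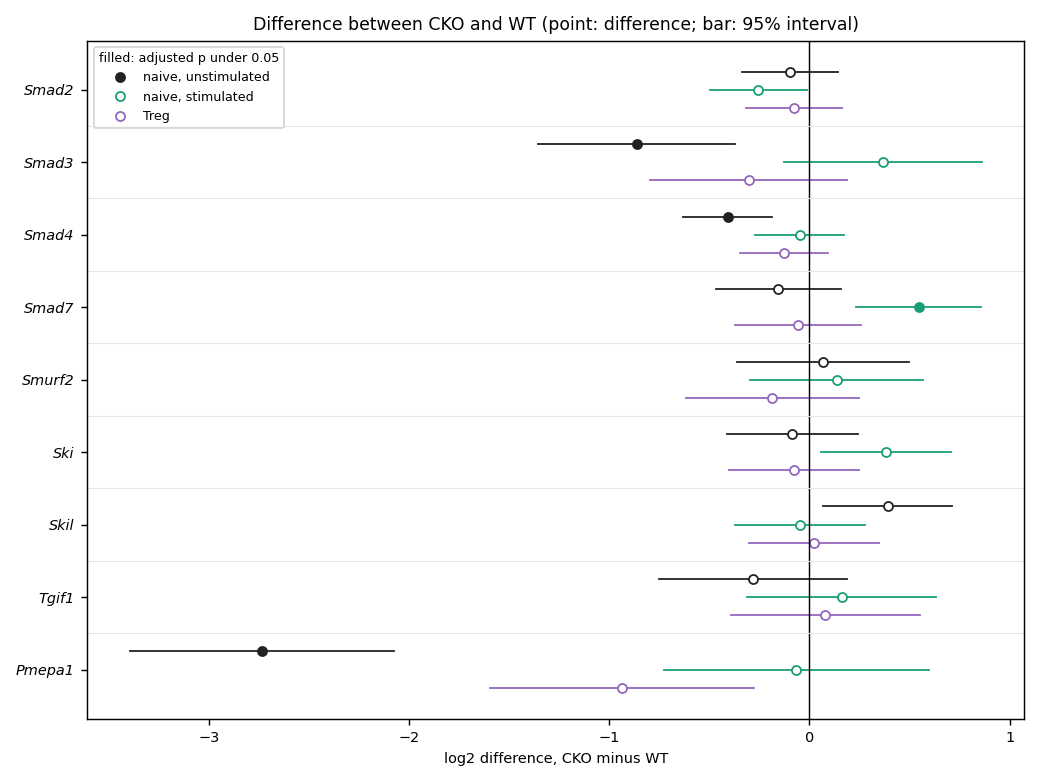
Log2 difference of CKO minus WT (horizontal axis) for the 9 genes in unstimulated naive cells (black), stimulated naive cells (green) and Treg (purple), from the brightest probe. Points are differences of means of 4 arrays, bars 95% intervals, and filled points have an adjusted p under 0.05. Pmepa1 in unstimulated cells, at -2.73, lies apart from the other differences, which run from -0.94 to 0.55.

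At the level of probes, 7 of the 17 were called between genotypes in unstimulated cells (6 lower, 1 higher) where 19.4% of all kept probes were called. In stimulated cells 4 of 17 were called (3 higher, 1 lower), where 22.4% were, and in Treg 0 of 17, where 3.74% were.

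**Figure D4:**
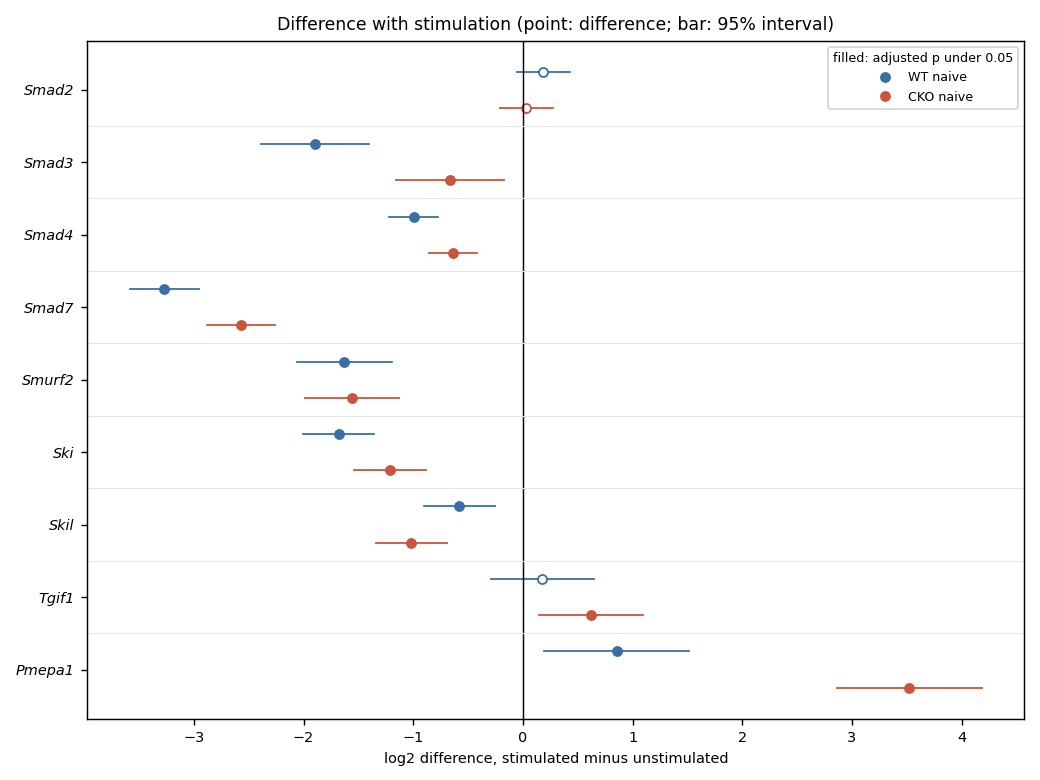
Log2 difference of stimulated minus unstimulated naive cells (horizontal axis) for the 9 genes in WT (blue) and CKO cells (red), from the brightest probe. Points are differences of means of 4 arrays, bars 95% intervals, and filled points have an adjusted p under 0.05. Smad7 lies at -3.27 and -2.57, and Pmepa1 at 0.85 in WT and 3.52 in CKO cells.

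Between Treg and unstimulated naive cells 5 of the 9 genes were called in WT, where 48.4% of all genes were, and 5 in CKO, where 28.3% were. Tgif1 was higher and Smad2, Smad4 and Smad7 were lower in both, Skil was called higher in WT and Pmepa1 in CKO. Of all genes 18.9% were called higher and 29.4% lower in WT Treg, and 11.6% and 16.7% in CKO Treg. Against stimulated cells all 9 genes were called in both genotypes, where 72.6% of all genes in WT and 67.8% in CKO were: 7 were higher in Treg and Smad2 and Pmepa1 were lower, where 35.8% of all genes in WT and 34.4% in CKO were called higher and 36.8% and 33.3% lower. The 2 contrasts share the Treg arrays. With normexp correction and its offset of 50, the Smad4 difference from stimulated cells turned to -0.23 in WT and -0.05 in CKO, not called. Its sign was thus not kept under that setting. On the main signals the 2 Smad4 probes were higher in Treg, by 0.39 and 1.00 in WT and by 0.32 and 1.20 in CKO. The CKO call of the brighter Smad4 probe was lost without CKO stimulated replicate 3 (0.25, adjusted p = 0.0529). Pmepa1 was not called against stimulated cells with normexp correction (-0.36 in WT and -0.50 in CKO, adjusted p = 0.187 and 0.0824), nor Smad2 with scaling on the brightest shared probes (-0.03 and -0.06, adjusted p = 0.731 and 0.504). The interaction of genotype and cell type called 0 of the 9 genes and 0.394% of all genes.

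Of the 9 genes 4 had a start in the RefSeq promoter table for GRCm38.p6. Sequence before the start is shown for Smad3, Smurf2 and Ski, which have 1 listed start each. These genes fell on stimulation, as did Smad4, Smad7 and Skil, which had no start listed there. The 250 bases upstream of the start were searched on both strands for the SMAD box (AGAC or GTCT), for CAGAC or GTCTG, which contain it, and for the palindrome GTCTAGAC. Lines run 5′ to 3′ toward the start, and capitals mark SMAD boxes. Smad3 lies at chr9:63757995-63758244 on the minus strand, Smurf2 at chr11:106920716-106920965 on the minus strand, and Ski at chr4:155222536-155222785 on the minus strand.
Smad3: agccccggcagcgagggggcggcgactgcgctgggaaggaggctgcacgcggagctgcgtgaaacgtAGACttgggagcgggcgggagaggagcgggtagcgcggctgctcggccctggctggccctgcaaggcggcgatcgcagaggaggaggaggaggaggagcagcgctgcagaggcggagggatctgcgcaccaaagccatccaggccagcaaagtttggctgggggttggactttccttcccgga
Smurf2: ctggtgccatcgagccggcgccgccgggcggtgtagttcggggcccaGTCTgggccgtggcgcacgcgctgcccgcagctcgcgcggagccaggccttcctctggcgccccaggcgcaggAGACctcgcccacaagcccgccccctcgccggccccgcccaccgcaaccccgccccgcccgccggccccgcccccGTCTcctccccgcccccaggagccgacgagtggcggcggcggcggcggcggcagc
Ski: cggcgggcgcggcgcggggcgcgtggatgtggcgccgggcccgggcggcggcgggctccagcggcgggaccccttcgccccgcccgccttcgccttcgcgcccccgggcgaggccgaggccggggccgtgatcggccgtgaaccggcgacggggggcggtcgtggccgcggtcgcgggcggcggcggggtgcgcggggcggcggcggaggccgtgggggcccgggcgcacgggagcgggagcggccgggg
Smad3 held 1 SMAD box, Smurf2 held 3, of which 1 was part of GTCTG, and Ski held 0. Tgif1 has 5 listed starts, with 0 to 4 boxes before each. A SMAD box stood in 82.9% of the 32851 promoters of the table (median 2), CAGAC or GTCTG in 42.2% and the palindrome in 0.167%. A match describes the letters of these windows only.

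Of 35 other genes of the pathway 31 could be tested (Tgfb2, Smad6, Smad9 and Zfyve9 were too dim). In unstimulated cells 2 were called higher and 5 lower in CKO, with a median of -0.04 against 0.01 over all genes. Of all genes 7.83% were called higher and 10.9% lower there, 18.7% in all, so the share of these 31 called was near the background. The ligand gene Tgfb3 was 8.33-fold higher (3.06 ± 0.29, adjusted p = 3.23e-07) and Itgae, the integrin chain of CD103, 2.26-fold higher (1.18 ± 0.33, adjusted p = 0.0187). The receptor genes Tgfbr2 (-0.90 ± 0.12, adjusted p = 4.82e-05) and Tgfbr1 (-0.60 ± 0.15, adjusted p = 0.00902) and Tgfbrap1, which encodes a receptor-associated protein (-0.62 ± 0.21, adjusted p = 0.0481), were lower. Of 6 receptor genes 3 were called lower and 0 higher in unstimulated CKO cells, beside 10.9% and 7.83% of all genes. The count of 7 was 3 without WT unstimulated replicate 3 or CKO unstimulated replicate 2, 11 without WT unstimulated replicate 4, 1 with normexp correction, 15 with array weights, and 4 without the filter on dim probes, with the mean of the probes or fitting only the arrays compared.

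In stimulated cells 6 of these 31 genes were called higher in CKO and 1 lower, where 11.6% and 12.4% of all genes were. That count of 7 was 4 without CKO stimulated replicate 2 or with only probes above background on all arrays, 3 with normexp correction and 12 with array weights. Tgfb3 was higher by 3.21 ± 0.29, with the probe above background on 4 CKO but 2 of 4 WT arrays, and so was the activin receptor gene Acvr2a (1.81 ± 0.45, adjusted p = 0.00776), again with 2 of 4 WT arrays. Eng, which encodes the co-receptor endoglin, was higher by 1.75 ± 0.36 (adjusted p = 0.00197), and Strap, whose product binds SMAD7, was lower (-0.54 ± 0.12, adjusted p = 0.00274). Of the 6 receptor genes 3 were called higher and 0 lower in CKO stimulated cells, beside 11.6% and 12.4% of all genes. In Treg Tgfb3 was the 1 gene called, at 2.93 ± 0.29 (adjusted p = 4.71e-07). There 0 of the 6 receptor genes were called, beside 4.31% of all genes. Tgfbr2 was called in both interactions: its genotype effect differed from that in unstimulated cells by 1.25 ± 0.17 after stimulation (adjusted p = 0.000207) and by 0.98 ± 0.17 in Treg (adjusted p = 0.00654). On stimulation 6 of the 31 were called higher and 16 lower in WT, and 6 and 17 in CKO cells, with medians of -0.77 and -0.61 against -0.03 and -0.08 over all genes. Of all genes 31.7% were called higher and 30.2% lower in WT, and 29.7% and 30.4% in CKO cells.

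The genes whose 6 group means most resembled those of a member were found among 12317 genes with a settled name, by the root mean square difference of the centred means on the log2 scale. Smad2 was left out because its means spanned under 1. For Smad3 they were Otulinl (0.064), Trim30d (0.085) and Trim12c (0.144), and for Smad4 Bcas3 (0.033), Irf2 (0.058) and Jade2 (0.058). For Smad7 they were Plec (0.090), Nbdy (0.115) and Tcp11l2 (0.117), and for Smurf2 Coq8a (0.091), Hspa2 (0.091) and Nudt13 (0.092). Ski was nearest to Stk10 (0.049), Ets1 (0.051) and Camk4 (0.057), Skil to Usp22 (0.069), Il3ra (0.076) and Cep128 (0.086), and Tgif1 to Plcb3 (0.113), Dcaf12l2 (0.119) and Xkr8 (0.121). Pmepa1 had no close match: its nearest genes were Cyb561 (0.470), Pcsk4 (0.496) and Sqle (0.517). Among the 9 genes themselves Ski and Smurf2 were the closest pair (0.127), and Smad7 and Pmepa1 the most distant (2.37).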

How the data were processed

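Each of 24 total RNA samples was hybridized, as Cy3-labelled cRNA, to its own Agilent mouse array, with 4 arrays on a slide. The deposited scanner files hold a processed signal for each spot as an intensity, from which the software had subtracted background and a spatial trend, per the file headers; the submitters' processing notes name Agilent Feature Extraction 9.5. The authors' normalized table is also an intensity, with the same distribution in every column, and served as an alternative.

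Flagged outlier spots were left out, spots of a probe averaged, and log2 signals taken minus the array's 75th percentile. Probes well above background on at least 3 of 4 arrays of at least 1 group were kept (25198 of 41174), and a gene was its brightest kept probe, with names updated through RefSeq accessions or symbols. Group means of all 24 arrays were fitted with limma 3.58.1 in R 4.3.3, with moderated 2-sided tests and Benjamini-Hochberg adjustment at 0.05 over all genes (over all kept probes for probe values). The fit was tested on simulated data. The number of arrays limits the precision: the median SE of a log2 difference was 0.22.

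The members and gene lists were chosen with earlier results of these data known. Beyond members, genes are named by a rule: Trim28, the 3 largest called rises and falls of the pathway list between genotypes, and the 3 genes most like each member. Alternatives covered normalization, background correction, scaling, filter, probe choice, blocks for slide and replicate number, age, array weights, the arrays fitted and leaving out each array. The normexp background correction added an offset of 50 to every signal. The processed signal at an array's 75th percentile ranged from 31.3 to 372. Same-numbered CKO Treg and CKO unstimulated arrays deviated together (correlations 0.366 to 0.490), so their numbers were taken as pairing them. Blocking changed no call there. For replicate 1 the mice were 7 weeks old in CKO Treg and 6 weeks old in CKO unstimulated cells, so the numbers need not mark the same mouse. Plots used matplotlib 3.10.9 under Python 3.11.15.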

Additional observations from a re-analysis of the deposited data

Results flagged for a closer look

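In groups of 4 arrays, a value was picked out where its gap to the nearest of the other 3 exceeded Dixon's 95% critical share of the group's range; of 102 groups of member probes 3 were so marked, and chance marks about 1 in 20. Smad3 on CKO Treg replicate 1 was -0.95, with the others from -0.30 to -0.22. On the second Skil probe, WT unstimulated replicate 4 was 1.73, with the others from 0.80 to 0.93. On the Smurf2 probe 1523 bases upstream of the brightest, WT Treg replicate 4 was 0.83, with the others from 0.44 to 0.47.

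The effect of stimulation differed between genotypes by an interaction test for 2 genes: Pmepa1, where it was 2.67 larger on the log2 scale in CKO than in WT cells (adjusted p = 0.00157), and Smad3, where it differed by 1.23 (adjusted p = 0.044). The Pmepa1 interaction was not called with normexp correction (0.89, adjusted p = 0.57), and that of Smad3 was not called in 21 of 28 settings.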

How the results depend on the processing

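The count of members called in unstimulated cells (3) stayed within 1.5 times of its value under the settings run except normexp correction, where it was 1; Pmepa1 could not be tested where every array had to be above background. In stimulated cells (1) it was 2 after quantile normalization, on the authors' values, with scaling on the brightest shared probes, with the mean of probes and with a slide or replicate block, 4 with array weights, 0 with normexp, and 1 to 2 leaving out 1 array. In Treg (0) it was 1 after quantile normalization and on the authors' values. For Treg against unstimulated cells (5 in each genotype) it was 3 in WT with scaling on the brightest shared probes, and in CKO 3 fitting those arrays alone and 3 to 5 leaving out 1 array. The interaction with stimulation (2) gave 1 after quantile normalization, on the authors' values, without the filter, with every array above background and on the compared arrays alone, 0 with normexp, 4 with array weights and 1 to 2 leaving out 1 array; that with cell type (0) gave 1 with age as a term or array weights and 0 to 1 leaving out 1 array. Counts for stimulation and for Treg against stimulated cells kept within 1.5 times. Reversed values were Smurf2 in unstimulated cells with the mean of probes (-0.476, against 0.068, not called, on the brightest probe), and Smad4 in Treg against stimulated cells with normexp (-0.227 in WT, -0.054 in CKO, neither called). The cause was not tested. The median of all genes in Treg against stimulated cells moved in WT from 0.05 to 0.67 with scaling on the brightest shared probes and in CKO from 0.08 to 0.96 without the filter on dim probes; with that scaling in WT Smad2 was not called (-0.03). Of the genes called between genotypes, 41.8% were higher in CKO unstimulated cells, against 59.6% with scaling on the brightest shared probes. In stimulated cells it was 48.2%, against 60.8% after quantile normalization, 60.9% on the authors' values, 75.5% on the brightest probes and 28.9% with normexp, and in Treg 57.3% against 87.7% with normexp. With scaling on the brightest probes the share of calls that were higher moved from 51.2% to 37.9% for stimulation in WT cells. For Treg against unstimulated cells it moved from 39.1% to 69.4% in WT and from 40.9% to 67.2% in CKO (54.2% and 54.7% with normexp), and against stimulated cells from 49.3% to 69.0% and from 50.8% to 67.3%. In the interactions the share was 62.1% with stimulation (73.0% on the brightest probes, 42.3% with normexp) and 60.0% with cell type (48.9% and 28.6%). All-gene counts between genotypes ranged from 388 to 6621 in unstimulated, 1372 to 8259 in stimulated cells and 81 to 1027 in Treg.

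With the replicate number as a block, Ski was called in stimulated cells (0.38, adjusted p = 0.0265), the Smad7 interaction was called (0.70, adjusted p = 0.0155) and that of Smad3 was not (1.23, adjusted p = 0.0521); no other member changed its call. Unstimulated CKO and WT arrays of the same number shared a slide and an age. The correlation of their deviations was -0.21 to 0.17, so the numbers were not taken as pairing them. Such correlations cannot show that the arrays were unpaired.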
